A study of Mus musculus with 13 samples.

Results

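Hippocampal gene expression was compared between sham-cKO mice, in which Lin28a had been deleted, and sham-WT mice, with neither group having had seizures. The comparison took every library labelled as saline-treated, which were 3 sham-WT and 4 sham-cKO libraries of the 13 libraries of the study, and described all genes across them. Sham-WT mice were Nestin-Cre::Lin28a+/+ and sham-cKO mice were Nestin-Cre::Lin28aloxP/loxP, so both genotypes carried the Cre transgene, and what differed by design was the floxed Lin28a allele. Nestin-Cre recombines in neural progenitors, so that neurons, astrocytes and oligodendrocytes derived from them carry the deletion, while microglia, blood vessels and meninges do not. Mice had been backcrossed to C57BL/6N for at least 5 generations, received saline at 6 weeks of age, and whole hippocampi were taken 3 days later, with 1 library per mouse. Males and females were used in the study, but the labels do not give the sex of a mouse. The other 6 libraries came from mice of the same genotypes after pilocarpine-induced status epilepticus (SE). RNA was sequenced as total RNA without ribosomal RNA, and values below are read counts per 1000000 counts of the library (CPM) after TMM, a scaling that equalises the bulk of genes between libraries.

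LIN28A is an RNA-binding protein of early embryos, stem cells and progenitors, where it keeps let-7 microRNAs from maturing, and it is largely switched off as neurons differentiate. It binds the precursor hairpin, blocks DICER1 and recruits the uridylyl transferases TUT4 and TUT7, after which the exonuclease DIS3L2 degrades the tailed precursor. Mature let-7 in turn represses growth and cell cycle genes such as Hmga2, Igf2bp1 to Igf2bp3 and Myc, as well as Lin28a and Lin28b themselves, so that LIN28 and let-7 oppose each other.

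The mature let-7 sequences are shown since they define the sites by which target genes were counted. They were taken from RefSeq (GRCm38.p6) for the 11 let-7 family genes matched, which include mir-98, and c-1 with c-2 and f-1 with f-2 encode the same mature strand. Capitals mark the seed, bases 2 to 8 from the 5′ end, and it is the same in all of them.
mmu-let-7a-5p: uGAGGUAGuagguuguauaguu
mmu-let-7b-5p: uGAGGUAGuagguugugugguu
mmu-let-7c-5p: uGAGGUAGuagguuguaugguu
mmu-let-7d-5p: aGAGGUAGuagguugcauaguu
mmu-let-7e-5p: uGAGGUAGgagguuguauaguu
mmu-let-7f-5p: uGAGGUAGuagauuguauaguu
mmu-let-7g-5p: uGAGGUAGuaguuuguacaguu
mmu-let-7i-5p: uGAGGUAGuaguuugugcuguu
mmu-miR-98-5p: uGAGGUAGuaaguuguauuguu

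The 7 sham libraries held 59659977 to 84354243 counts each, and pairs within a genotype differed far beyond sampling noise, with a median chi-square per gene of 5.98 to 9.80. Hippocampal identity was clear in each of them, with the granule cell factor Prox1 at 47.2 to 114 CPM, the CA2 marker Rgs14 at 46.5 to 76.7 CPM and the neuronal splicing factor Rbfox3 (NEUN) at 53.3 to 84 CPM. Sham-cKO replicate 2 stood apart, with 167 genes at least 4-fold above and 91 at least 4-fold below the median of the other 6 libraries, and 2-fold beyond the next library, among 16659 genes that reached 1 CPM. Each of the other 6 had 1 to 28 such genes above and 5 to 33 below. Its high genes were markers of the thalamus, which lies under the hippocampus, and results that rest on it are given with and without it. Xist reached 176 CPM in sham-WT replicate 2, 257 CPM in sham-WT replicate 3 and 304 CPM in sham-cKO replicate 3, where Ddx3y was at most 0.0273 CPM, while the other 4 libraries had Ddx3y at 86.8 to 95.4 CPM. The genotypes thus held unequal shares of Xist-expressing libraries, and a fit with this split as a term is called the fit with a sex term below. In bulk tissue, fewer cells of a type and less RNA per cell cannot be told apart.

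With genotype as the only term, 0 of 20785 genes tested (0%) passed an adjusted p of 0.05 in edgeR's quasi-likelihood test, and the smallest Benjamini-Hochberg adjusted p was 0.868. An unadjusted p under 0.05 was found for 1152 genes (5.54%), of which 792 (3.81%) were higher and 360 (1.73%) lower in sham-cKO. Limma voom with quality weights called 0 genes (1310 at an unadjusted p under 0.05), and DESeq2 called 17 of 20708 (0.0821%), 15 higher and 2 lower. Most of the 1152 genes differed little, since 798 were under 1.5-fold, 201 were between 1.5-fold and 2-fold, and the rest, 129 higher and 24 lower in sham-cKO, were at least 2-fold apart. The groups did not overlap in 1599 genes (7.69%), with 807 higher and 792 lower in sham-cKO. Over genes of at least 1 CPM, by the average of the sham-WT and sham-cKO means, the median standard error of a log2 fold change was 0.14. Over all tested genes the median absolute log2 fold change was 0.15. The counts depended on single libraries, with 708 genes at an unadjusted p under 0.05 without sham-WT replicate 1 and 752 without sham-cKO replicate 4. At 2-fold or more there were 221 higher and 43 lower without sham-WT replicate 2, 272 and 36 without sham-WT replicate 3, and 120 and 164 without sham-cKO replicate 3. No source states that the libraries of a genotype came from separate litters, so the tests measure the spread between these mice.

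Lin28a, on chromosome 4 from 134003330 to 134019196 of mm10 (GRCm38), had 0 counts in all 7 sham libraries, so the deletion could not be seen in these data. With no reads in a library its level could still be as high as 0.0364 to 0.0506 CPM, the worth of 3 counts, a limit that reflects counting alone. Lin28b, its paralog on chromosome 10 and also a let-7 blocker, was at 3.57, 3.31 and 2.92 CPM in sham-WT replicates 1 to 3 and at 4, 12.4, 5.16 and 4.97 CPM in sham-cKO replicates 1 to 4. Every sham-cKO library lay above every sham-WT library, and replicate 2 lay far above the others. The log2 fold change of Lin28b was 1.03 ± 0.38 (standard error, unadjusted p = 0.0258) with all libraries and 0.54 without sham-cKO replicate 2 (unadjusted p = 0.0217), and its adjusted p in edgeR was 0.868. Counts over the let-7 hairpins were low, since all 11 let-7 rows of the table, without mir-98, were at or under 0.897 CPM in every sham library. These rows cover the hairpins alone and do not give the level of the whole primary transcripts. Mature microRNAs are too short for these libraries and were not measured. Of the 4 let-7 genes that could be tested, Mirlet7d and Mirlet7f-1 had log2 fold changes of 0.01 and 0.08, and Mirlet7c-1 and Mirlet7a-2 of 0.43 and 0.69, with standard errors of 0.44 to 0.88. Mir100hg, the long non-coding host transcript that spans Mirlet7a-2 on chromosome 9 from 41376526 to 41615185, was at 21.5, 20.7 and 23.7 CPM in sham-WT replicates 1 to 3 and at 29.5, 27.9, 31.2 and 28.8 CPM in sham-cKO replicates 1 to 4. All 4 sham-cKO libraries were higher by a narrow margin, the log2 fold change was 0.43 ± 0.09 (standard error, unadjusted p = 0.000807), and DESeq2 called it (adjusted p = 0.0399). It was 0.46 without sham-cKO replicate 2.

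Of 20 tested genes that make, modify or use let-7, 14 were higher in sham-cKO, 4 of them at an unadjusted p under 0.05, and 6 were lower, 1 of them at that level, with none called. Over all tested genes, 3.81% were higher and 1.73% lower at that level. Their median log2 fold change was 0.16, beside 0.01 over all tested genes. Among the argonautes, which hold the mature microRNA, Ago3 was at 90.2, 88.4 and 89.6 CPM in sham-WT replicates 1 to 3 and at 101, 105, 101 and 125 CPM in sham-cKO replicates 1 to 4 and its log2 fold change came to 0.28 ± 0.09 (standard error, unadjusted p = 0.0123). The sham-cKO libraries were all above the sham-WT libraries, with replicate 4 highest. Ago2, the argonaute that slices its target, had 0.22 ± 0.08 (standard error). Tut4, which tails pre-let-7 when LIN28A is bound, was at 33.6, 39 and 38 CPM in sham-WT replicates 1 to 3 and at 42.6, 40.7, 43.4 and 46.5 CPM in sham-cKO replicates 1 to 4, again without overlap, at a log2 fold change of 0.25 ± 0.09 (standard error, unadjusted p = 0.0191). Its partners in precursor decay differed less, with Tut7 at -0.03 and Dis3l2 at -0.09. Of the processing enzymes, Drosha, Dgcr8 and Dicer1 were at 0.15, 0.18 and 0.19 and Xpo5, the nuclear exporter of precursors, at -0.02. Tarbp2, a partner of DICER1, was lower, at 13, 10.7 and 11.1 CPM in sham-WT replicates 1 to 3 and at 9.23, 8.8, 9.03 and 10 CPM in sham-cKO replicates 1 to 4 and a log2 fold change of -0.31 ± 0.12 (standard error, unadjusted p = 0.028). The median level of the machinery genes was -0.06 to -0.02 in sham-WT and -0.01 to 0.13 in sham-cKO on the log2 scale, so the groups did not overlap but lay close.

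Of 27 tested let-7 target genes, 16 were higher and 11 lower in sham-cKO, with 2 higher at an unadjusted p under 0.05 and a median log2 fold change of 0.09. Those 2 were the insulin pathway genes Irs2 and Insr, and over all tested genes 3.81% were higher at that level. Without sham-cKO replicate 2 neither reached it (unadjusted p = 0.0709 and 0.0616), and the median was 0.06, or 0.04 with a sex term. Irs2, the adaptor below the insulin and IGF1 receptors, was at 51.2, 47.8 and 58 CPM in sham-WT replicates 1 to 3 and at 55, 74.9, 62.2 and 61.4 CPM in sham-cKO replicates 1 to 4 and had 0.29 ± 0.12 (standard error, unadjusted p = 0.0355). Insr, the insulin receptor, was at 58.2, 65.5 and 64.9 CPM in sham-WT replicates 1 to 3 and at 67.3, 70.6, 69.1 and 77.4 CPM in sham-cKO replicates 1 to 4 and its log2 fold change came to 0.19 ± 0.08 (standard error, unadjusted p = 0.0453), with the groups apart for Insr and overlapping for Irs2. The embryonic targets were near or below detection, with Hmga2 at 0 to 0.18 CPM, Igf2bp1 at 0 to 0.187 CPM and Igf2bp3 at 0 to 0.0828 CPM. Of the growth genes, Myc, Mycn and Nras had log2 fold changes of 0.18, 0.13 and 0.09. Fign, a microtubule-severing enzyme, had 30.5 CPM in sham-cKO replicate 2 and 1.95 to 3.28 CPM elsewhere, and its log2 fold change went from 2.23 to 0.41 without that library. Levels of the list were -0.01 to 0.04 in sham-WT and -0.03 to 0.06 in sham-cKO, which overlap.

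Sites for the let-7 seed were counted on the transcript strand of GENCODE 3′ untranslated regions, with 1 region, the longest, taken per gene. The site CTACCTC, complementary to the seed, was present in 8.96% of 20981 regions, and CTACCTCA, which contains it and adds the base opposite position 1, in 3.02%. Among tested genes, 1550 had a site and a median log2 fold change of 0.05, while 13628 had none and a median of -0.01. Genes with a site had longer regions, with a median of 2340 bases against 1049. At matched length the medians were close, at -0.05 with a site and -0.08 without in regions up to 500 bases, 0.00 and 0.01 from 1000 to 2000 bases, 0.06 and 0.06 from 2000 to 4000 bases, and 0.12 and 0.12 beyond. Of 30 listed targets, Irs2 and Insr each had 1 site of 8 bases, and Myc had no site in the region used.

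The 17 genes called by DESeq2 include the 10 of smallest p in edgeR, and 9 of them differed by less than 2-fold. Nme2, a nucleoside diphosphate kinase that replenishes GTP and CTP, lies on chromosome 11 from 93949814 to 93956256. It was at 82.8, 69.3 and 70.5 CPM in sham-WT replicates 1 to 3 and at 34.7, 33.6, 34.2 and 53.7 CPM in sham-cKO replicates 1 to 4. Sham-cKO replicates 1 to 3 were nearly alike and replicate 4 lay between them and sham-WT. The log2 fold change was -0.91 ± 0.17 (standard error, unadjusted p = 0.000535), adjusted p = 0.868 in edgeR and 0.00649 in DESeq2, and it ranged from -1.11 to -0.83 over the alternatives tried. Nme1, the neighbouring and closely similar gene, had -0.18 ± 0.09, and reads of the pair may have been shared between them in the counting.

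Genes of neuronal signalling and adhesion were among those higher in sham-cKO. Cxxc4, an inhibitor of WNT signalling that binds DVL, lies on chromosome 3 from 134236144 to 134262163 and was at 27.1, 30.5 and 24 CPM in sham-WT replicates 1 to 3 and at 38.7, 40, 39.7 and 35.5 CPM in sham-cKO replicates 1 to 4. The groups did not overlap, and the log2 fold change was 0.51 ± 0.10 (standard error, unadjusted p = 0.000753), with an adjusted p of 0.0376 in DESeq2. Mdga2, a membrane anchored protein that binds neuroligins and restrains synapse formation, was at 63, 73 and 67.5 CPM in sham-WT replicates 1 to 3 and at 82.1, 95.3, 90.1 and 89.7 CPM in sham-cKO replicates 1 to 4, with 0.41 ± 0.08 (standard error, unadjusted p = 0.00102) on the log2 scale and an adjusted p of 0.0399 in DESeq2. LOC115487962, an uncharacterised transcript inside the Mdga2 locus, was at 1.74, 2.43 and 3.74 CPM in sham-WT replicates 1 to 3 and at 6.73, 7.15, 5.16 and 6.24 CPM in sham-cKO replicates 1 to 4, and since the use of strand in the counting is not stated, its reads cannot be told apart from those of Mdga2. Xkr4, of the XK-related scramblases that expose phosphatidylserine, was at 164, 195 and 171 CPM in sham-WT replicates 1 to 3 and at 217, 266, 230 and 244 CPM in sham-cKO replicates 1 to 4, a log2 fold change of 0.45 ± 0.10 (standard error, unadjusted p = 0.00142). In all of these the lowest sham-cKO library was above the highest sham-WT library. Mdga2 and Xkr4 are over 200 kb long on the genome, a class with 9.77% of genes higher at an unadjusted p under 0.05.

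A second set of called genes acts in the nucleus. Usp49, a deubiquitinase of histone H2B, was at 14.9, 13.8 and 14.2 CPM in sham-WT replicates 1 to 3 and at 17.9, 19.5, 21 and 20.4 CPM in sham-cKO replicates 1 to 4, a log2 fold change of 0.48 ± 0.10 (standard error, unadjusted p = 0.000916). Of the genes it overlaps, Tomm6 had -0.16 and Gm20517 -2.0 ± 0.76 (standard error, unadjusted p = 0.0293), the opposite direction to Usp49. Apex2, an exonuclease of DNA base excision repair on chromosome X, was at 13, 12.7 and 16 CPM in sham-WT replicates 1 to 3 and at 18.9, 19.8, 20.6 and 20.9 CPM in sham-cKO replicates 1 to 4, with 0.54 ± 0.11 (standard error, unadjusted p = 0.000965), and its annotated span covers Alas2 and Pfkfb1. The rest of the genes higher by DESeq2 were mostly uncharacterised non-coding transcripts. 6330415B21Rik within Ctnna2 had a log2 fold change of 1.71, Gm36790 1.26, LOC108168481 0.83 and A230006K03Rik 0.70, each with no overlap between the groups. The plot of single genes shows the values of 12 named genes in each library.

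**Figure D1:**
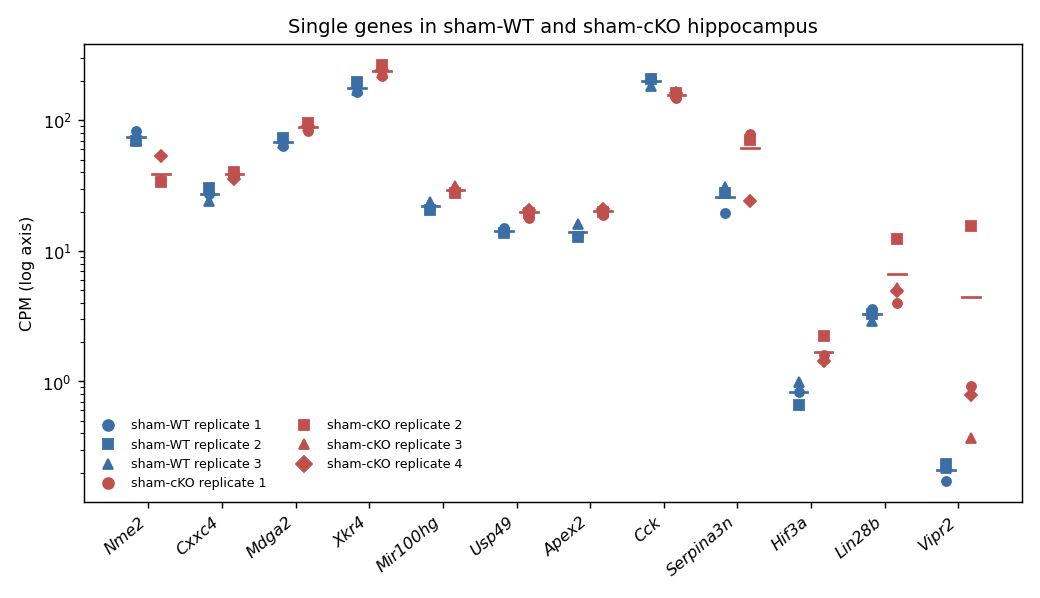
CPM on a log axis of 12 named genes in each sham library, with sham-WT in blue, sham-cKO in red, a marker shape per replicate and a line at the mean of the group. Nme2 and Cck were lower in every sham-cKO library, and the high mean of Vipr2 in sham-cKO came with 15.6 CPM in replicate 2.

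Another 5 genes called by DESeq2 were at 0 in every library of a genotype, so only bounds are given, set against 3 counts over the group. Gm31443, a non-coding transcript in the Dclk1 locus, was at 0.607, 0.249, 0.505 and 0.508 CPM in sham-cKO replicates 1 to 4 and had no counts in sham-WT, which makes it at least 33.1-fold higher in sham-cKO. Dclk1 itself, a kinase of the doublecortin family, had a log2 fold change of -0.07. Emilin3, an extracellular matrix glycoprotein, was at 0.559, 0.202, 0.191 and 0.180 CPM, at least 20.1-fold higher, and Gm42037 and Gm42315 were each at least 20.7-fold higher. Slc44a3, a choline transporter-like protein, was at 0.197, 0.456 and 0.270 CPM in sham-WT and at 0 in all sham-cKO libraries, at least 28.8-fold lower. These levels are low in each library, and all 5 genes were under 1 CPM in every sham library. They could pass the low-count filter only through the genotype that had counts, and the bounds reflect counting alone, not the spread between mice. After SE, Gm31443 was at 0.234 to 0.785 CPM and Emilin3 at 0.0616 to 0.179 CPM in SE-WT. Slc44a3 was at 0.242 to 1.09 CPM in SE-cKO, so a count of 0 was not a fixed trait of either genotype.

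The largest differences were taken among genes with a mean of at least 1 CPM in the higher group. Those without overlap between the groups at an unadjusted p under 0.05 included Vipr2 and Adgrf2, receptors that were higher in sham-cKO. Vipr2, a receptor for the peptides VIP and PACAP, was at 0.173, 0.235 and 0.219 CPM in sham-WT replicates 1 to 3 and at 0.923, 15.6, 0.368 and 0.787 CPM in sham-cKO replicates 1 to 4. Replicate 2 was far above all others and the only sham library above 1 CPM. The log2 fold change of 4.41 ± 1.57 (standard error, unadjusted p = 0.0263) came to 1.73 without replicate 2 (unadjusted p = 0.0119). Adgrf2, an adhesion receptor that overlaps Adgrf4, had 1.45 ± 0.45, and 1.00 without that library. Kcnn3, the SK3 channel that calcium opens to hyperpolarise neurons, was at 14.8, 15.9 and 14.9 CPM in sham-WT replicates 1 to 3 and at 18.4, 53.6, 24.8 and 21 CPM in sham-cKO replicates 1 to 4, a log2 fold change of 0.97 ± 0.37 (standard error, unadjusted p = 0.0323) and of 0.51 without sham-cKO replicate 2. Abhd12b, a serine hydrolase, went from 3.22 to 1.16 without sham-cKO replicate 2.

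Regulators of transcription were also on that list. Hif3a, a hypoxia-inducible factor subunit, was at 0.827, 0.663 and 0.995 CPM in sham-WT replicates 1 to 3 and at 1.59, 2.22, 1.5 and 1.43 CPM in sham-cKO replicates 1 to 4, with 1.04 ± 0.28 (standard error, unadjusted p = 0.00508), and 0.88 without sham-cKO replicate 2. Heyl, a NOTCH target repressor, had 0.98 ± 0.32 and was at 0.580 to 1.25 CPM in sham-WT and 1.36 to 1.98 CPM in sham-cKO. Of the others, Xlr3a had 1.60 ± 0.64, Insyn2b 1.03 ± 0.31, Abhd15 1.00 ± 0.35, Ubap1l 0.97 ± 0.31 and Npcd 1.03 ± 0.39. Xlr3a belongs to a family of near-identical copies, Insyn2b lies in Dock2 and Npcd shares its span with Nptxr and Cbx6, which makes their counts uncertain. All of these genes had adjusted p values of 0.868 or more in edgeR.

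The largest differences in the other direction were in genes with low counts. Agpat2, an acyltransferase of phosphatidic acid synthesis, was at 1.32, 1.79 and 2.4 CPM in sham-WT replicates 1 to 3 and at 1.01, 0.871, 0.71 and 0.442 CPM in sham-cKO replicates 1 to 4, with -1.26 ± 0.34 (standard error, unadjusted p = 0.00555) on the log2 scale. Ackr2, a scavenging receptor of chemokines, had -1.32 ± 0.47, Tmem37 -1.19 ± 0.35, Ldoc1 -1.04 ± 0.30 and Ms4a6d, a gene of macrophages and microglia, -0.94 ± 0.37. Adora3, an adenosine receptor of microglia, had -0.69 ± 0.30, and Cyp39a1, an oxysterol hydroxylase, -0.68 ± 0.27. The remaining ones were Lppos (-0.81), Scand1 (-0.69), the histone gene H2ac11 (-0.65) and the actin gene Acta1 (-0.65). The rule that named these 11 genes and Nme2 required that the groups did not overlap. Among all tested genes, 792 were lower in sham-cKO without overlap.

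The dentate gyrus makes neurons throughout life from resident progenitors, and 24 marker genes of these cells and of newborn neurons were split, with 13 higher and 11 lower in sham-cKO and a median log2 fold change of 0.01. Nes, the progenitor filament, was at 8.17, 5.4 and 6.78 CPM in sham-WT replicates 1 to 3 and at 7.27, 5.63, 6.35 and 4.75 CPM in sham-cKO replicates 1 to 4, with -0.16 ± 0.20 (standard error, unadjusted p = 0.428). Dcx, of migrating neuroblasts, was at 22, 16.7 and 17.5 CPM in sham-WT replicates 1 to 3 and at 18.9, 15, 24.7 and 25.4 CPM in sham-cKO replicates 1 to 4, with 0.18 ± 0.19 (standard error, unadjusted p = 0.387). Neither gene parted the genotypes. Calb2 (calretinin), which marks immature granule cells and also thalamic and other neurons, was at 22, 20.3 and 29 CPM in sham-WT replicates 1 to 3 and at 34.6, 98.8, 43.3 and 8.77 CPM in sham-cKO replicates 1 to 4, and its log2 fold change went from 0.98 to 0.29 without sham-cKO replicate 2. Hopx, of quiescent radial stem cells and astrocytes, was lower in each sham-cKO library, at 85.5, 84.2 and 86.8 CPM in sham-WT replicates 1 to 3 and at 70.1, 51.8, 78.1 and 61.5 CPM in sham-cKO replicates 1 to 4, a log2 fold change of -0.37 ± 0.13 (standard error, unadjusted p = 0.0165) and of -0.28 without replicate 2. Dpysl3, a cytoskeletal protein of growing axons, had 0.17 ± 0.07.

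Of 29 cell cycle genes, 21 were lower and 8 higher in sham-cKO, with 0 at an unadjusted p under 0.05, 0 called and a median log2 fold change of -0.14. Mki67, present in dividing cells, was at 5.78, 3.88 and 5.31 CPM in sham-WT replicates 1 to 3 and at 4.07, 2.63, 4.86 and 4.92 CPM in sham-cKO replicates 1 to 4, with -0.26 ± 0.25 (standard error, unadjusted p = 0.316). The replication helicase gene Mcm6 was at 22.7, 24.1 and 25.6 CPM in sham-WT replicates 1 to 3 and at 21.9, 20.6, 17.2 and 22.4 CPM in sham-cKO replicates 1 to 4, with -0.22 ± 0.11 (standard error, unadjusted p = 0.0816). Its groups were apart by less than 1 CPM, and those of Mki67 overlapped. The level of the list was 0.04 to 0.18 in sham-WT and -0.16 to 0.03 in sham-cKO, so the groups were barely apart, and the median was -0.10 without sham-cKO replicate 2.

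Marker lists of the main neurons of the hippocampus had medians near 0, with values of -0.03 over 14 granule cell genes and -0.04 over 20 CA pyramidal cell genes and 0 of either list at an unadjusted p under 0.05. Prox1 was at 51.9, 62.8 and 68.5 CPM in sham-WT replicates 1 to 3 and at 68.1, 114, 47.2 and 85.4 CPM in sham-cKO replicates 1 to 4, with 0.38 ± 0.27 (standard error, unadjusted p = 0.205) and 0.14 without sham-cKO replicate 2. Of 18 interneuron genes, 10 were higher and 8 lower in sham-cKO, at a median of 0.02, or 0.16 without sham-cKO replicate 2. Only Cck, the neuropeptide cholecystokinin, reached an unadjusted p under 0.05 with all libraries. Cck was lower, at 212, 207 and 182 CPM in sham-WT replicates 1 to 3 and at 147 to 163 CPM in the 4 sham-cKO libraries. The genotypes were well apart, at -0.33 ± 0.08 (standard error, unadjusted p = 0.00282), with the range over alternatives from -0.44 to -0.29. The peptide genes Npy and Sst had -0.43 ± 0.23 and -0.30 ± 0.27, with their lowest values, 10.3 and 26.5 CPM, in sham-cKO replicate 2. Without that library, the GABA synthesis and transport genes Gad2 and Slc32a1, Reln and Dlx6os1 had log2 fold changes of 0.45, 0.42, 0.29 and 0.30, each at an unadjusted p under 0.05, beside 4.13% of all genes tested that were higher at that level. With all libraries none of these 4 reached it.

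Glial markers differed little in the full comparison. Of 20 microglial genes, 15 were lower, with C1qa, the first component of complement, at 43, 41.4 and 44.8 CPM in sham-WT replicates 1 to 3 and at 37.5, 37.7, 34.5 and 34.5 CPM in sham-cKO replicates 1 to 4 and -0.24 ± 0.08 (standard error, unadjusted p = 0.0106). C1qb, its partner in the same complex, had -0.06 ± 0.13. Gfap, the astrocyte filament, was at 298, 358 and 326 CPM in sham-WT replicates 1 to 3 and at 286, 275, 229 and 312 CPM in sham-cKO replicates 1 to 4, with -0.24 ± 0.12 (standard error, unadjusted p = 0.0745), while 18 astrocyte markers had a median of -0.03 and 27 reactive astrocyte genes 0.03. Serpina3n, a secreted protease inhibitor that reactive astrocytes and oligodendrocytes make, was at 19.5, 27.9 and 30.6 CPM in sham-WT replicates 1 to 3 and at 78, 70.9, 74.3 and 24.2 CPM in sham-cKO replicates 1 to 4. Sham-cKO replicates 1 to 3 were far above sham-WT and replicate 4 lay within it, at a log2 fold change of 1.26 ± 0.41 (standard error, unadjusted p = 0.0165) and 1.19 without replicate 2. Endothelial, mural, meningeal and oligodendrocyte precursor lists had medians of -0.09, 0.00, -0.06 and 0.06, and their levels overlapped between the genotypes.

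Myelin genes depended on the library high in thalamic genes. With all libraries, 11 of 18 mature oligodendrocyte genes were lower and 0 reached an unadjusted p under 0.05, at a median of -0.05. Without sham-cKO replicate 2 the median was -0.31 and 9 of the 18 were lower at that level, beside 2.24% of all genes tested. Mbp, a structural protein of myelin, was at 1670, 1200 and 1160 CPM in sham-WT replicates 1 to 3 and at 836, 1710, 1040 and 1000 CPM in sham-cKO replicates 1 to 4. Its log2 fold change was -0.21 with all libraries and -0.47 without replicate 2. Cnp, a myelin enzyme, went from -0.15 to -0.36 and Trf, the iron carrier transferrin, from -0.17 to -0.45. List levels were -0.03 to 0.10 in sham-WT, 0.55 in sham-cKO replicate 2 and -0.40 to -0.11 in the other sham-cKO libraries.

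Of 24 glutamate receptor genes 19 were higher, with a median log2 fold change of 0.15 and 5 at an unadjusted p under 0.05, beside 3.81% of all genes tested and 9.77% of genes over 200 kb. Grin3a, an NMDA receptor subunit that lowers calcium entry, was at 53.5, 52.3 and 59 CPM in sham-WT replicates 1 to 3 and at 72.1, 73.5, 73.2 and 60.9 CPM in sham-cKO replicates 1 to 4, with 0.36 ± 0.09 (standard error, unadjusted p = 0.00345). Sham-cKO replicate 4 was nearest to sham-WT. The delta receptor Grid1, which binds cerebellins at synapses, had 0.26 ± 0.08, Grin2b 0.31 ± 0.12 and the metabotropic receptor Grm7 0.21 ± 0.08. The level of the list was -0.15 to -0.07 in sham-WT and -0.01 to 0.13 in sham-cKO. Of 17 GABA receptor genes 13 were higher, with a median of 0.27 that came to 0.13 without sham-cKO replicate 2, and with Gabrg3 at 0.37 ± 0.12 and Gabrb1 at 0.27 ± 0.10. Of 19 genes of the insulin-like growth factor system 12 were higher, at a median of 0.06, with Igf1, Irs2 and Insr at an unadjusted p under 0.05, a level that 0 of the list reached without sham-cKO replicate 2. The levels of the GABA receptor list, -0.17 to 0.08 in sham-WT and -0.01 to 0.13 in sham-cKO, overlapped.

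Serotonin receptors were of interest to the study. Of 12 tested genes 5 were higher and 7 lower, at a median of -0.01. Htr4, which couples to cyclic AMP, was at 23.5, 28.1 and 33.9 CPM in sham-WT replicates 1 to 3 and at 28.5, 20.7, 29.4 and 29.1 CPM in sham-cKO replicates 1 to 4, with -0.07 ± 0.16 (standard error, unadjusted p = 0.669), and 0.04 without sham-cKO replicate 2. Htr1b, an inhibitory receptor, was at 7.57, 11.3 and 8.06 CPM in sham-WT replicates 1 to 3 and at 12.8, 6.2, 9.95 and 12.4 CPM in sham-cKO replicates 1 to 4, with 0.22 ± 0.26 (standard error, unadjusted p = 0.422). Htr2c, which the choroid plexus also expresses, was at 20.8, 43.9 and 76.6 CPM in sham-WT replicates 1 to 3 and at 33.3, 49.7, 81.7 and 21.8 CPM in sham-cKO replicates 1 to 4, with 0.00 ± 0.56 (standard error, unadjusted p = 0.999). The value for Htr2c was -0.42 to 0.53 as each library was left out and 0.61 ± 0.35 with a sex term. The genotypes overlapped for these 3 genes. Htr7 had 0.60 ± 0.25 with 23.4 CPM in sham-cKO replicate 2, and 0.34 without it.

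Thalamic genes set sham-cKO replicate 2 apart from every other library. Their level there was 2.82 on the log2 scale, against -0.53 to -0.33 in the other 6 libraries. Tcf7l2, a transcription factor of thalamic neurons, was at 2.27, 1.38 and 2.02 CPM in sham-WT replicates 1 to 3 and at 2.39, 72.6, 2.47 and 2.46 CPM in sham-cKO replicates 1 to 4. Slc17a6, the vesicular glutamate transporter of thalamic and other subcortical neurons, was at 50.4, 51.3 and 21.3 CPM in sham-WT replicates 1 to 3 and at 40.5, 342, 17.6 and 54.1 CPM in sham-cKO replicates 1 to 4, and Prkcd, a kinase of thalamic relay neurons, at 18.7, 24.6 and 27.2 CPM in sham-WT replicates 1 to 3 and at 15.4, 451, 46.5 and 28.6 CPM in sham-cKO replicates 1 to 4. Shox2 was at 57.4 CPM and Gbx2 at 10.3 CPM in that library, beside at most 0.229 and 0 CPM elsewhere. Of 21 tested genes of the list, 20 were higher in sham-cKO, at a median of 1.73 on the log2 scale, but 0 reached an unadjusted p under 0.05, and the median was 0.03 without that library. Ntng1, netrin G1 of thalamocortical axons, was higher in the other sham-cKO libraries too, at 35.2, 40.9 and 37.5 CPM in sham-WT replicates 1 to 3 and at 50, 233, 44.6 and 50.3 CPM in sham-cKO replicates 1 to 4 and a log2 fold change of 0.36 without replicate 2 (unadjusted p = 0.00443).

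Habenular genes followed the thalamic ones, with a list level of 1.60 in sham-cKO replicate 2 and -0.30 to 0.05 elsewhere. Gpr151, an orphan receptor of habenular neurons, was at 15.2 CPM there and 0.320 to 1.16 CPM elsewhere. Chrna3, a nicotinic receptor subunit of the habenula, had a log2 fold change of 1.93, and 0.92 without that library. The same library was low in hippocampal and cortical genes such as Atp2b4 (37.0 CPM, against 114 to 240), Meis2 and Ccn2. Its interneuron level was -0.87, against -0.01 to 0.22 elsewhere, and the plot of list levels shows the opposite placing of these lists.

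**Figure D2:**
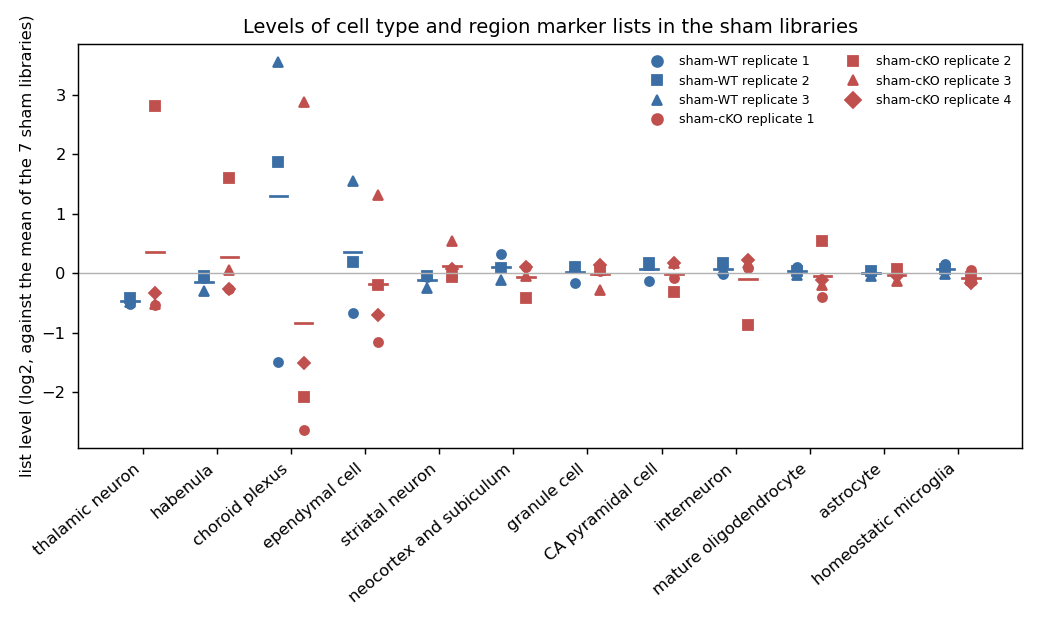
Level of 12 marker lists in each sham library, as the median over members of log2 CPM minus the mean of the 7 sham libraries, with sham-WT in blue, sham-cKO in red and a line at each group mean. Sham-cKO replicate 2 is at 2.82 for thalamic and 1.60 for habenular genes. Choroid plexus levels run from -1.5 to 3.55 in sham-WT and from -2.64 to 2.88 in sham-cKO.

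For large differences found with this library included, the number that stayed without it was counted. Genes high in it alone can miss an unadjusted p under 0.05 because of their spread, as the thalamic genes did. The counts below leave such genes out, so they do not give the full share of large differences that rest on it. Of the 129 genes at least 2-fold higher at an unadjusted p under 0.05, 108 could be tested without sham-cKO replicate 2. Of these, 90 were still at least 2-fold higher and 81 had an unadjusted p under 0.05, and the median log2 fold change went from 1.70 to 1.27. At a mean of 1 CPM or more in the higher group, 49 genes were at least 2-fold higher and 10 lower. Of the 49, 34 remained 2-fold higher without sham-cKO replicate 2 and 39 kept an unadjusted p under 0.05. Their median went from 1.26 to 1.12.

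**Figure D3:**
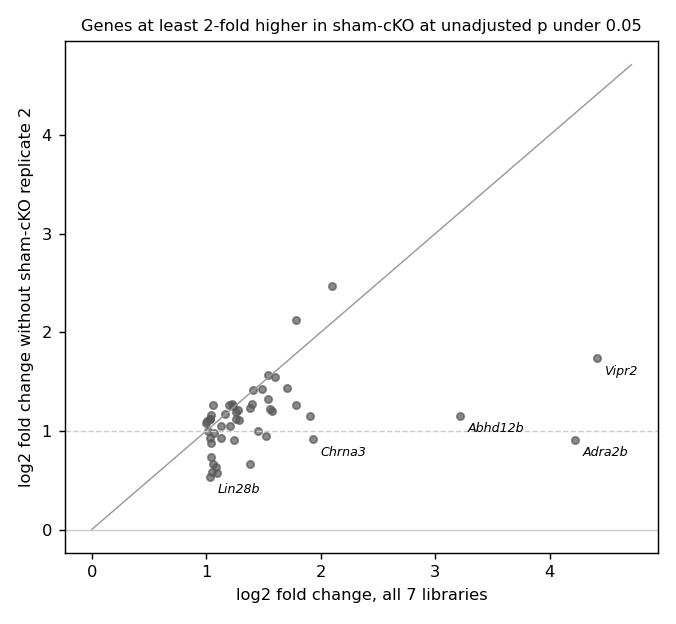
Log2 fold change with all 7 libraries (horizontal axis) and without sham-cKO replicate 2 (vertical axis) for 49 genes. They had a mean of at least 1 CPM in the higher group. All were at least 2-fold higher at an unadjusted p under 0.05 with all 7 libraries. The line of equality and a dashed line at 2-fold are drawn. Vipr2 lies at 4.41 and 1.73, Abhd12b at 3.22 and 1.16, and Lin28b at 1.03 and 0.54.

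Choroid plexus, which hangs into the ventricle beside the hippocampus, differed among libraries of both genotypes. Ttr, transthyretin, the main secreted protein of choroid epithelium, was at 32.1, 1320 and 4090 CPM in sham-WT replicates 1 to 3 and at 5.90, 24.4, 2440 and 34.4 CPM in sham-cKO replicates 1 to 4. The high libraries were sham-cKO replicate 3 and, among sham-WT, replicates 2 and 3, which are also those with Xist. The Y-linked genes were higher and 4 X-linked genes that escape inactivation lower in sham-cKO by the same split, at medians of 1.13 and -0.11, which came to -0.01 and 0.04 with a sex term. All 18 choroid plexus genes were lower in sham-cKO, at a median log2 fold change of -1.37, and 0 of them reached an unadjusted p under 0.05. The median was -0.19 with a sex term. Of 14 ependymal genes 13 were lower, at a median of -0.46, which became 0.20 with a sex term. Sex and choroid content cannot be told apart in these 7 libraries.

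Genes of other brain regions and of blood were high in other libraries. Sham-cKO replicate 3 had a striatal list level of 0.55, against -0.25 to 0.07 elsewhere, together with the pituitary and hypothalamic genes Prl (13.2 CPM) and Trh (9.02 CPM). Of 15 striatal genes, Gpr52, Pde10a and Drd2 were higher at an unadjusted p under 0.05, beside 3.81% of all genes. Drd2 was at 4.57 CPM in sham-cKO replicate 2 and 0.359 to 2.14 CPM elsewhere, and its log2 fold change went from 1.91 to 1.15 without that library (unadjusted p = 0.0521). Gpr52, an orphan receptor, was at 7.49, 7.57 and 8 CPM in sham-WT replicates 1 to 3 and at 11.4, 9.62, 14.1 and 10 CPM in sham-cKO replicates 1 to 4, with 0.57 ± 0.15 (standard error, unadjusted p = 0.005), and Pde10a, a phosphodiesterase, had 0.32 ± 0.10. The groups were apart in both, and the highest value was in replicate 3 for Gpr52 and in replicate 2 for Pde10a. Sham-cKO replicate 4 had Tph2 at 6.90 CPM and Slc6a4 at 2.51 CPM, which mark serotonin neurons of the raphe. Red cell genes were highest in sham-cKO replicate 3, with Hbb-bt at 3.74, 1.79 and 1.1 CPM in sham-WT replicates 1 to 3 and at 5.17, 1.73, 13.2 and 6.06 CPM in sham-cKO replicates 1 to 4. The blood list had a median of 0.98, which was 1.27 without replicate 2. The neocortex and subiculum list had a median of -0.08, with its lowest level, -0.42, in sham-cKO replicate 2. Immediate early, interferon response and glucocorticoid response genes had medians of -0.07, -0.10 and 0.03, with 0 of 18, 0 of 18 and 0 of 14 at an unadjusted p under 0.05. Without sham-cKO replicate 2, whose immediate early gene level was -0.61, the median of that list turned to 0.15, and those of the neocortex and subiculum, CA pyramidal cell and meningeal lists to 0.03, 0.08 and 0.04. The part of these tissues in the differences between genotypes was not tested beyond the values with and without a library or term.

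Long and short genes differed in opposite directions by small amounts. Length was examined in 15426 tested genes of at least 1 CPM, by the average of the sham-WT and sham-cKO means. Of these, 684 (4.43%) were higher and 336 (2.18%) lower at an unadjusted p under 0.05. By length on the genome, the median log2 fold change was -0.10 over 2318 genes up to 5 kb, 0.01 over 3931 genes of 20 to 50 kb, 0.07 over 1322 genes of 100 to 200 kb and 0.10 over 952 genes over 200 kb. In the shortest class 6.38% of genes were lower and 1.77% higher at an unadjusted p under 0.05, and in the longest 0.105% were lower and 9.77% higher. The level of the shortest class was 0.11, 0.04 and 0.05 in sham-WT replicates 1 to 3 and -0.04, 0.01, -0.02 and -0.12 in sham-cKO replicates 1 to 4, so the groups were apart. In the longest class it was -0.09, -0.03 and -0.03 in sham-WT and 0.04, -0.05, 0.04 and 0.11 in sham-cKO, where replicate 2 lay within sham-WT. Sham-WT replicate 1 and sham-cKO replicate 4 were the extremes at either end. Leaving out each library in turn gave medians of -0.12 to -0.07 for the shortest and 0.07 to 0.13 for the longest class. Protein-coding genes alone gave -0.10 and 0.10.

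**Figure D4:**
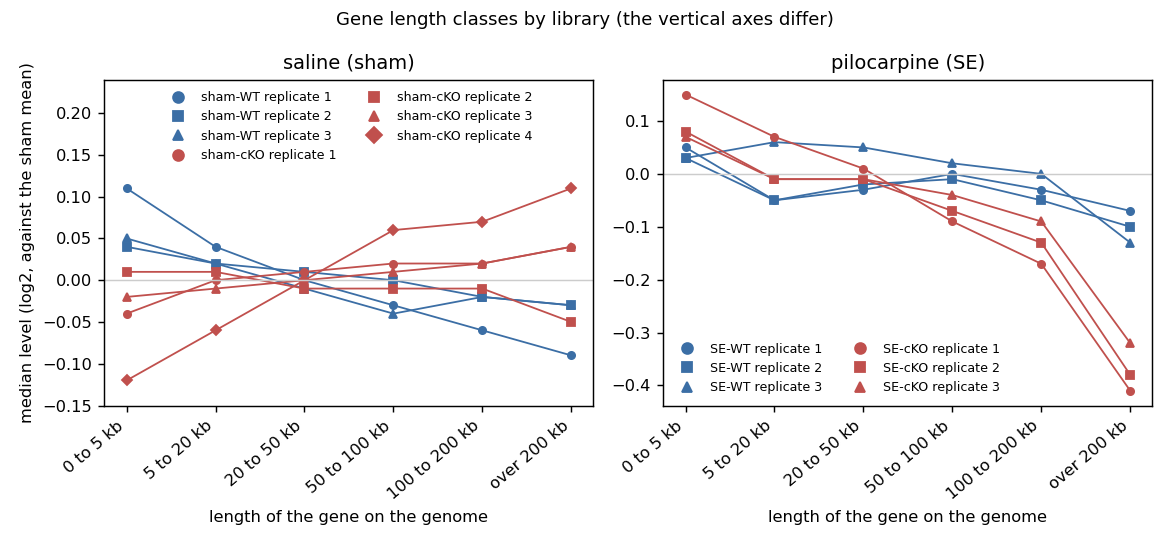
Median level of tested genes by length on the genome, in log2 units against the mean of the 7 sham libraries, for saline libraries (left) and pilocarpine libraries (right), with WT in blue and cKO in red and 1 line per library. In saline libraries the shortest class is highest in sham-WT replicate 1 (0.11) and lowest in sham-cKO replicate 4 (-0.12), and after pilocarpine the longest class is at -0.41 to -0.32 in SE-cKO and -0.13 to -0.07 in SE-WT.

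Gene families made of short genes were lower in sham-cKO. Of 79 genes of cytosolic ribosomal proteins 78 were lower, at a median log2 fold change of -0.16 and with 16 (20.3%) at an unadjusted p under 0.05, beside 1.73% of all genes that were lower at that level and 6.38% of genes up to 5 kb. Rpl11, which also binds MDM2, was at 171, 144 and 149 CPM in sham-WT replicates 1 to 3 and at 137, 138, 135 and 111 CPM in sham-cKO replicates 1 to 4, with -0.23 ± 0.10 (standard error, unadjusted p = 0.0483). Beside 1607 lower of 2318 genes up to 5 kb (median -0.10), 77 of 82 oxidative phosphorylation genes were lower (median -0.13). So were 72 of 78 genes of mitochondrial ribosomal proteins (median -0.11) and 49 of 54 clustered histone genes (median -0.23). The 2 mitochondrial ribosomal RNAs, by contrast, had 0.07 and -0.21 with sham-WT alone spanning 334 to 993 CPM for mt-Rnr1. Levels of the cytosolic ribosomal protein genes were 0.20, 0.06 and 0.06 in sham-WT and -0.05, 0.01, -0.03 and -0.24 in sham-cKO, apart but with the same extreme libraries. The sign of these medians held with RLE scaling and in the fit of all 4 groups.

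Long non-coding RNAs leaned the other way. Over 1031 of them the median was 0.16, 140 (13.6%) were higher and 10 lower at an unadjusted p under 0.05, beside 4.43% and 2.18% of all genes of at least 1 CPM. Among these were imprinted and neuronal transcripts of high level. Kcnq1ot1, which silences its imprinted neighbours, was at 122, 126 and 189 CPM in sham-WT and at 192, 173, 199 and 255 CPM in sham-cKO, a log2 fold change of 0.50 ± 0.18. Meg3, expressed from the maternal allele, had 0.33 ± 0.14 and Snhg14, the host of small nucleolar RNAs in the Prader-Willi region, 0.27 ± 0.10. For Kcnq1ot1, sham-WT replicate 3 lay within the range of sham-cKO. The level over all long non-coding RNAs was -0.18 to 0.05 in sham-WT and 0.01 to 0.19 in sham-cKO, which overlap, and the median after SE was -0.17.

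Genes flanking the floxed locus were examined since the chromosome around Lin28a may differ between the genotypes, which was not tested. Within 5 Mb of Lin28a, 11 of 201 tested genes (5.47%) had an unadjusted p under 0.05, and the median over the 201 was -0.04. Of the 11 genes 2 were higher and 9 lower, where over all genes 3.81% were higher and 1.73% lower at that level. Among genes up to 5 kb, 1.77% were higher and 6.38% lower, and the window was not matched for gene length. Within 1 Mb there were 3 of 41. Sh3bgrl3, a small thioredoxin-like protein, was lower in each sham-cKO library, at 39.2, 33 and 36.9 CPM in sham-WT replicates 1 to 3 and at 28.7, 29, 29.1 and 27.6 CPM in sham-cKO replicates 1 to 4 and -0.34 ± 0.08 (standard error, unadjusted p = 0.00306). Arid1a, a subunit of the BAF chromatin remodelling complex, had 0.29 ± 0.11 and Sdc3, a neuronal syndecan, 0.28 ± 0.10. C1qa and Rpl11, above, also lie in this window.

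The same genotypes were also compared after SE. That comparison, SE-cKO against SE-WT, shares no library with the sham comparison, and 2046 of 21126 genes (9.68%) had an unadjusted p under 0.05. Of 19990 genes tested in both, 40.3% had the same sign of log2 fold change. Of the 768 that were higher in sham-cKO at an unadjusted p under 0.05, 21.9% had the same sign after SE, and of the 355 lower ones 33.0%. These are shares over genes, which are not independent of each other. Of the 12 genes called by DESeq2 with counts in both genotypes, all 11 that were higher in sham-cKO had a negative value after SE. Cxxc4 had 0.51 ± 0.10 in sham and -1.37 ± 0.37 after SE, Mdga2 0.41 ± 0.08 and -0.73 ± 0.17, and Xkr4 0.45 ± 0.10 and -0.83 ± 0.18. Nme2, -0.91 ± 0.17 in sham mice, was at 0.01 ± 0.27. Lin28b had 1.03 ± 0.38 and -1.79 ± 0.49. Serpina3n was higher in cKO in both, at 1.26 ± 0.41 and 1.32 ± 0.19.

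The interaction of genotype and SE was tested in edgeR over all 13 libraries, and 36 of 22596 genes (0.159%) had an adjusted p under 0.05. Among the named genes, Mdga2 and Xkr4 had interactions of -1.09 and -1.24 (adjusted p = 0.0418 for each), so their higher value in sham-cKO and lower value in SE-cKO differed by more than the spread between mice. Gfap, at -0.24 in sham and 0.76 after SE, had an interaction of 1.05 (adjusted p = 0.0439), and Vim, another filament of astrocytes, of 1.26 (adjusted p = 0.0486). The glutamate receptor list had a median of 0.15 in sham and -0.51 after SE, cell cycle genes -0.14 and 0.90, and genes over 200 kb 0.10 and -0.26. The thalamic list had 1.73 and -1.42, where SE-WT replicate 3, with a level of 2.27, was the library high in these genes. The striatal list, 0.19 in sham, had -3.43 after SE, with 4.47 in SE-WT replicate 2.

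**Figure D5:**
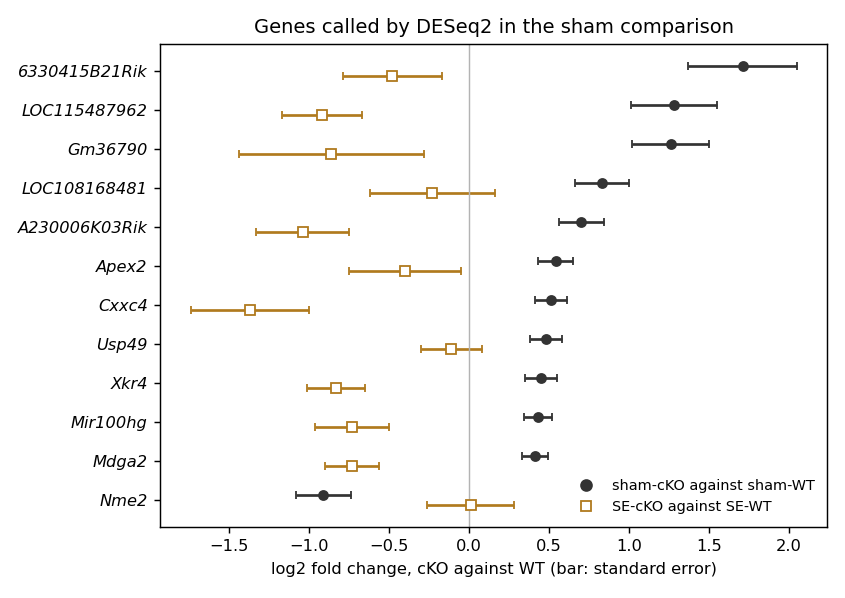
Log2 fold change of cKO against WT with its standard error for 12 genes called by DESeq2 in the sham comparison, with filled circles for sham and open squares for SE. All 11 genes higher in sham-cKO are below 0 after SE, with Cxxc4 at 0.51 and -1.37 (5 called genes at 0 in a genotype are not drawn).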

How the data were processed

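Per the labels and the study's methods, total RNA of hippocampi was sequenced as stranded TruSeq libraries, reads were handled with bcl2fastq 2.20.0 and Trimmomatic, aligned to mm10 with HISAT2 2.1.0 and quantified with StringTie 2.1.3b. The table deposited by the authors lists 45777 genes and 13 libraries, each with counts, TPM and FPKM. Only the counts, whole numbers that were not normalized, were used here. The strand setting of the counting is not given in the sources used here, so overlapping and antisense genes, and near-identical copies, cannot be told apart. Positions were taken by gene ID from RefSeq on GRCm38, where 45679 of the IDs (99.8%) matched. The let-7 sequences also came from RefSeq, and the 3′ untranslated regions from the GENCODE basic annotation of protein-coding transcripts.

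In R 4.3.3, edgeR 4.0.16 removed low genes from the 7 sham libraries (filterByExpr, at least 10 counts and 15 in total), scaled the libraries with TMM factors and compared the genotypes by its quasi-likelihood F test with robust dispersions. Benjamini-Hochberg adjustment ran over 20785 genes, with a threshold of 0.05. Standard errors were derived from the F statistic. CPM used TMM library sizes, and list levels are medians of log2 CPM (prior count 2) against the mean of the sham libraries. A gene was counted as set apart in a library after adding 0.05 CPM. Depth was 59659977 to 84354243 counts per library, so the spread between mice, not counting error, limits the precision. The test was run on simulated counts with 1 mean per gene and planted differences. It called 73 of 100 genes planted at a log2 fold change of 1 and 88 of 100 at 2, in either direction. The simulation had no library set apart and no sex split, so it does not measure how the test performs on these data. The alternatives were DESeq2 1.42.0, limma 3.58.1 (voom with quality weights), RLE scaling, the table unfiltered, a joint fit of the 4 groups, a replicate block, a sex term, the thalamic level as a covariate, a prior count of 0.5 and each library left out. Fits of libraries with Ddx3y above Xist only, and of the sex term without sham-cKO replicate 2, and the alternatives for gene length classes and families, were added after seeing the data.

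The comparison, the 33 gene lists and the rule for naming genes were chosen with earlier results of these data known. The rule named Lin28a, Lin28b and let-7 genes, genes the study names, the 12 largest differences in each direction (unadjusted p under 0.05, at least 1 CPM, no overlap, no predicted genes, clone names, microRNAs or small nucleolar RNAs), the 10 smallest p values, genes called by DESeq2, for each list the 3 lowest p values at most, genes within 5 Mb of Lin28a with an unadjusted p under 0.05, and sex-linked genes. Gene length classes, families, long non-coding RNAs, and the other list members and region genes described were chosen after their values were seen. Lists were described by counts and medians, with no test of a list. Results for some withheld items are not reported here.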

Additional observations from a re-analysis of the deposited data

Results flagged for a closer look

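Within the 4 sham-cKO libraries, 24 of 130 named genes and 5 of 33 lists had a library whose gap to the nearest other relative to the range exceeded Dixon's 95% critical value for 4 samples. Chance alone gives this in about 1 in 20 groups, and genes of a library are not independent. Sham-cKO replicate 2 accounted for 11 of the genes. In it Lin28b was at 12.4 CPM (4.00 to 5.16 in the other 3), Vipr2 at 15.6, Abhd12b at 12.5, Tcf7l2 at 72.6, Ntng1 at 233, Shox2 at 57.4, Gpr151 at 15.2, Pde10a at 108, Foxp2 at 42.7 and Lhfpl3 at 47.7 CPM, all higher than in the others, and Htr4 was lower at 20.7 CPM (28.5 to 29.4). Its thalamic list level was 2.82 and its interneuron level -0.87, against 0.08 to 0.22. Foxp2 is also expressed in thalamus, and Lhfpl3 marks oligodendrocyte precursors.

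Sham-cKO replicate 3 accounted for 8 genes. Choroid plexus genes were higher in it, with Enpp2 at 1690, Aqp1 at 15.9 and Sostdc1 at 6.58 CPM. Xist was at 304 CPM and Eif2s3x at 164 CPM, while Uty and Kdm5d were at 0 and Ddx3y at 0.0273 CPM. Its Y-linked list level was -6.02 and its level of X-linked escape genes 0.26. Sham-cKO replicate 4 accounted for 5 genes. Nme2 was at 53.7 CPM (33.6 to 34.7 in the others) and Npcd at 57.5 CPM (30.8 to 32.9), while Serpina3n was at 24.2 CPM (70.9 to 78.0), Grin3a at 60.9 CPM and Rpl11 at 111 CPM. Its level of glucocorticoid response genes was 0.17, against -0.04 to -0.01.

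The genotype effect differed between SE and sham by edgeR's interaction test (adjusted p under 0.05) for 9 named genes. The difference, the effect after SE minus that in sham on the log2 scale, was 1.05 for Gfap, 1.26 for Vim, 1.14 for the metallothionein gene Mt1 and 3.83 for Tagln, a smooth muscle and fibroblast protein, with adjusted p values of 0.0439, 0.0486, 0.0493 and 0.0462. Tagln was at 1.49 to 4.54 CPM in the sham libraries, 7.28 to 20.7 CPM in SE-WT and 102 to 135 CPM in SE-cKO. The difference was -1.24 for Xkr4, -1.09 for Mdga2, -2.15 for LOC115487962 and -1.70 for A230006K03Rik, with adjusted p values of 0.0418, 0.0418, 0.0433 and 0.0493. Mdga2 was at 73.6 to 98.3 CPM in SE-WT and 49.4 to 55.5 CPM in SE-cKO. For Gm31443 the fitted value was -8.59, which depends on the prior count since sham-WT had no counts of it.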

How the results depend on the processing

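The number of genes called at an adjusted p of 0.05 was 0 in edgeR under every alternative fit run with it and in limma voom, and 17 in DESeq2 (15 higher and 2 lower in sham-cKO). The smallest adjusted p in edgeR, 0.868 with all libraries, was 0.0678 without sham-cKO replicate 4. Counting instead every gene past an unadjusted p of 0.05 and a 2-fold change gave 129 higher and 24 lower. Genes at an unadjusted p under 0.05 numbered 1152, 668 in the fit of all 4 groups, and 708 (without sham-WT replicate 1) to 1302 (without sham-cKO replicate 2) as each library was left out, with 752 without sham-cKO replicate 4. In the fit with a replicate block there were 0 genes called and 923 at an unadjusted p under 0.05. Deviations of same-numbered libraries correlated at 0.09, 0.00 and 0.25, and those of differently numbered libraries at -0.23 to 0.08. So few pairs cannot decide whether the numbers pair the mice. The thalamic median of 1.73 came to 0.03 without sham-cKO replicate 2, -0.01 with a sex term and without that library, and 0.39 in voom. It was 0.00 with the thalamic level as a covariate, which that fit sets by construction. Leaving out each other library gave 1.68 to 2.03.

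Log2 fold changes of single named genes and medians of lists kept their sign, or moved by less than the spread between libraries, in 3171 of the alternative values, and 32 medians moved further. With a sex term the sign turned for Htr4 (0.05), Sostdc1 (0.22), Ak7 (0.15), mt-Rnr2 (-0.10), Eif2s3y (-0.06), Kdm5c (0.08) and Kdm5d (-0.08). With the thalamic level as a covariate it turned for Htr4 (0.04), Shox2 (-1.11), mt-Rnr2 (-0.02) and Kdm5c (0.01), in voom for Shox2 (-2.02) and Mx1 (0.79), and with the replicate block for Rbfox3 (-0.09). With Ddx3y-expressing libraries only, which leaves 1 sham-WT library assumed to vary like the sham-cKO ones, it turned for Mirlet7d (-0.18), Htr4 (0.15), Aif1 (-0.29), Dcx (-0.16), Rgs14 (0.01), Sostdc1 (0.86), Ak7 (0.26), Hbb-bs (-0.12), mt-Rnr2 (-0.11), Ddx3y (-0.02), Eif2s3y (-0.08), Kdm5c (0.08) and Kdm5d (-0.09). With the sex term and without sham-cKO replicate 2 it turned for Htr4 (0.12), Rgs14 (0.01), Sostdc1 (0.18), mt-Rnr2 (-0.14), Eif2s3y (-0.34), Ddx3x (0.01), Kdm5c (0.11) and Kdm5d (-0.07). Leaving out each library in turn gave log2 fold changes of both signs for 11 genes, with ranges of Htr2c -0.42 to 0.53, Mirlet7d -0.19 to 0.21, Mirlet7f-1 -0.24 to 0.46, Htr4 -0.19 to 0.06, Aif1 -0.06 to 0.18, Rbfox3 -0.08 to 0.13, Ak7 -1.53 to 0.10, Igfbp2 -0.82 to 0.07, mt-Rnr1 -0.53 to 0.30, mt-Rnr2 -0.18 to 0.22 and Kdm5c -0.15 to 0.05. The cause of these turns was not tested.

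Fits of Ddx3y-expressing libraries, and of the sex term without sham-cKO replicate 2, were chosen after seeing the data. Sex is not labelled, and the 3 libraries with Xist were also those high in choroid plexus genes, so these cannot be told apart.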
